A study of Xenopus laevis with 4 samples.

Results

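Transcripts of the vesicle coats, cargo adaptors, sorting nexins and tethering complexes were examined in early gastrula *Xenopus laevis* embryos. The genes were taken by name: clathrin chains, adaptor subunits (*ap1* to *ap5*), the COPI coat (*copa* to *copz*), genes named *sec* with a number, the exocyst (*exoc*), sorting nexins (*snx*), the COG complex, the TRAPP complex and genes named *vps* with a number. The rule found 184 of the 45098 gene models of the series, under 117 gene names, and no row carried the name *clta*. Models named *vps72* encode a chromatin protein and entered by their name only. A further 20685 models of the series carry only an identifier, and any vesicle genes among them were not covered.

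At the 1-cell stage, embryos of the Gcn5-AS group received 0.8 ng of a DMED-modified antisense DNA oligonucleotide against *gcn5* (*kat2a*), a histone acetyltransferase gene, and control embryos were injected with water. All embryos were dejellied, cultured and collected at stage 10.5, and each of the 2 Gcn5-AS and 2 control samples was a pool of 10 whole embryos. The control samples were recognised by their titles and knockdown labels, because their treatment text repeats the Gcn5-AS injection. In bulk RNA of whole embryos, fewer cells of a type and less RNA per cell cannot be told apart.

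Membrane traffic depends on protein coats that bend a patch of membrane into a vesicle while adaptors gather the cargo. COPII buds vesicles from the endoplasmic reticulum (ER), COPI returns proteins within the Golgi and back to the ER, and clathrin works with AP-1 at the Golgi and endosomes and with AP-2 at the plasma membrane. Retromer and sorting nexins recycle receptors from endosomes, ESCRT proteins sort receptors into the endosome for degradation, and tethers such as exocyst, COG, GARP and TRAPP catch vesicles at their target. Gastrulating embryos use these routes for signalling receptors, adhesion molecules and secreted matrix. The oligonucleotide is shown because it is the only difference between the groups that the study designed. Capitals mark the 7 bases joined by unmodified linkages, a stretch that lets RNase H cleave the paired RNA, and the other 11 linkages carry the DMED group, which protects against nucleases.

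Gcn5-AS oligonucleotide: tcaaaCACAAGCcgggtt

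Reads assigned to genes came to 2351039 to 4093025 per library. The 10 most abundant models took 36.0% to 50.2% of them, which left 1184910 to 2444743 reads for all other models. The 2 libraries of a group are called X and Y, letters that cannot be matched to the replicate numbers. In each group X is the library with the larger size factor, the divisor of its reads. Gcn5-AS X and control X are thus not known to be a pair. Values are normalized counts, that is, reads divided by the size factor of the library. They are not per length and do not rank genes by abundance. Of the 4 libraries Gcn5-AS X was the most distant. The SD over models of its log2 ratios to control X and Y was 1.07 and 1.12, against 0.892 and 0.803 for Gcn5-AS Y and 0.708 between the controls. Between Gcn5-AS X and Y it was 0.818, so Gcn5-AS Y lay no nearer to Gcn5-AS X than to control Y. The targeted transcript *kat2a.L* stood at 52.9 and 62.6 in Gcn5-AS libraries X and Y, against 50.4 and 103.5 in control libraries X and Y. Counts of *kat2a.S* were 13.7 and 35.5 in Gcn5-AS embryos, against 27.9 and 45.7 in controls. Neither was called, with log2 fold changes of −0.26 and −0.67 and adjusted p of 0.742 and 0.445 (limma-voom). Without control Y the value for *kat2a.L* was 0.19, and the last section gives its range with each library left out. A decrease of the target was thus not detected, and the reason was not tested. The control counts of *kat2a.L* differed from each other (50.4 and 103.5). Of 10 markers of later tissues 6 had models, none of which reached a mean of 10. Of 15 early gastrula markers 12 had models, and their summed counts were 10124 and 8790 in Gcn5-AS libraries X and Y, against 5232 and 5117 in control libraries X and Y. The markers were not uniform. Of their 21 models with a mean of at least 10, both Gcn5-AS libraries lay above both controls in 13, where 26.3% of all such models did. Those of *sox17a*, *sox17b.1*, *mix1*, *eomes* and *gsc* were among the 13. Both lay below both controls in *t.L* and *bmp4.S*, where 25.0% of all such models did. Any part of these differences in the results was not tested.

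Among the vesicle genes, the gene models called lower in Gcn5-AS embryos encoded clathrin heavy and light chains, subunits of AP-1 and AP-3, coat subunits of COPI and COPII, an exocyst subunit, a translocon subunit and a Vps13 protein. Each call is of a single gene model. With the reads of the duplicate copies (L and S) of a gene summed, *cltc*, *exoc5* and *sec61g* were not called. No vesicle gene model was called higher. Of the 184 models, 104 had a mean normalized count of at least 10 over both groups and were tested with limma-voom together with all 11272 such models, at a false discovery rate of 0.1 over the whole table. Of these 104, 9 fell (8.65%) and 0 rose. Of the 9, 3 (*cltb.S*, *copg2.S* and *sec61g.S*) reached the mean of 10 only through the controls, which favours a lower call. Over all models tested, 470 fell (4.17%) and 503 rose (4.46%). Of these 470, 102 reached the mean of 10 only through the controls. At an unadjusted p under 0.05, 17 of the 104 were lower (16.3%) and 5 higher (4.81%), against 10.2% lower and 11.8% higher over all models tested. The median log2 fold change, Gcn5-AS over control, was −0.27 for the vesicle genes and 0.02 for all models tested, and 66.3% of the vesicle models were lower, against 49.0% of all models. Both Gcn5-AS libraries lay below both controls in 37 of the 104 (35.6%), against 25.0% of all models, and above both controls in 18 (17.3%), against 26.3%. The 104 models come from the same 4 libraries and are not independent of each other.

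The called set depended on single libraries. Without Gcn5-AS X no vesicle model was called lower. Without Gcn5-AS Y, vesicle models were called in both directions, and more models were called both ways over the whole table too (last section). Without control X, and also without control Y, only *ap3s1.S* was called. Scaling by total reads left 3 called. The 9 log2 fold changes stayed below 0 with any other setting tried. With a library left out they were bound to stay below 0, since in all 9 both Gcn5-AS libraries lay below both controls. The median over the vesicle genes stayed between −0.28 and −0.22 with a library left out. The labels do not tell whether the pools of a group had different parents or clutches, so each p-value covers the spread between pools, which may be technical.

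**Figure D1:**
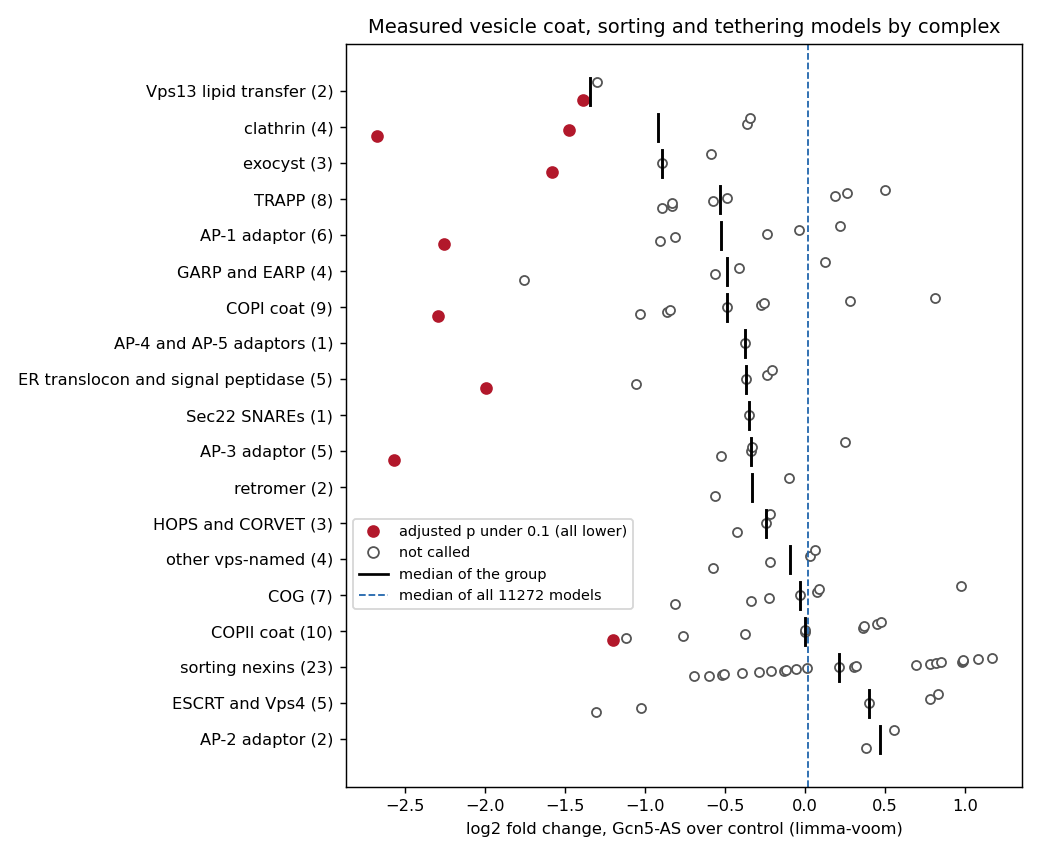
Log2 fold change (x axis, Gcn5-AS over control, limma-voom) of the 104 vesicle gene models tested, in rows by complex with the number of models in parentheses. Each point is a model, red for the 9 that were called, black bars are medians of a complex and the dashed line is the median of all 11272 models tested (0.02). The medians run from −1.34 for Vps13 proteins to 0.47 for AP-2, and all red points lie left of 0.

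All 4 clathrin models had negative log2 fold changes in Gcn5-AS embryos, and the S homeologs fell. So few models cannot be set apart from all models tested, of which 49.0% were lower and 4.17% fell. *cltb.S* reached the mean of 10 only through the controls. Without control Y the value of *cltc.L* was 0.03. *X. laevis* carries most genes in duplicate, as an L and an S homeolog on its 2 subgenomes. The clathrin heavy chain, which forms the legs of the triskelion, is encoded by *cltc*. Normalized counts of *cltc.S* were 63.2 and 90.6 in Gcn5-AS libraries X and Y, against 212.3 and 207.1 in control libraries X and Y. The groups did not overlap, and the fit gave a log2 fold change of −1.48 (SE 0.37, 95% interval −2.23 to −0.72, adjusted p 0.0256, limma-voom). Counts of *cltc.L* were 87.2 and 104 in Gcn5-AS embryos, against 93.3 and 161 in controls. These overlap, and the log2 fold change of −0.34 did not pass the test. The light chain gene *cltb*, whose product regulates the assembly of the lattice, also had an S model that fell. Counts of *cltb.S* were 6.87 and 4.67 in Gcn5-AS libraries X and Y (10 and 5 reads), against 41.3 and 37.7 in control libraries X and Y (77 and 28 reads), a log2 fold change of −2.68 (SE 0.73, adjusted p 0.0372). Counts of *cltb.L* were low and overlapped, at 8.24 and 17.7 in Gcn5-AS embryos and 17.2 and 9.41 in controls. Summed over the 4 clathrin models, counts were 166 and 217 in Gcn5-AS embryos, against 364 and 416 in controls, a ratio of means of 0.490.

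Adaptors link the clathrin lattice to cargo. The subunit genes *ap1b1*, for the large beta subunit of AP-1, and *ap3s1*, for the small sigma subunit of AP-3 in the route to lysosomes, had an S model that fell. Counts of *ap1b1.S* were 9.62 and 11.2 in Gcn5-AS libraries X and Y, against 50.9 and 49.8 in control libraries X and Y, a log2 fold change of −2.26 (SE 0.55, 95% interval −3.39 to −1.13, adjusted p 0.0231). The libraries within each group were close to each other here. Those of *ap3s1.S* were 6.18 and 34.6 in Gcn5-AS libraries X and Y, against 65.4 and 98.2 in control libraries X and Y, a log2 fold change of −2.57 (SE 0.56, adjusted p 0.0138). The groups did not overlap, but Gcn5-AS X was far below Gcn5-AS Y, and without Gcn5-AS X the log2 fold change was −1.16 (adjusted p 0.281) and without Gcn5-AS Y −3.58.

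Other adaptor models did not pass the test. The *ap1m2.1* model, for a medium subunit of AP-1 that recognises sorting signals, took more reads than any other vesicle model. Its counts were 7571 and 8615 in Gcn5-AS libraries X and Y, against 4658 and 9501 in control libraries X and Y. The control libraries differed from each other more than the groups did, with a log2 fold change of 0.22 that turned to −0.23 without control X. A row of similar name, *ap1m2.L*, had a mean under 10, at 5.50 and 6.54 in Gcn5-AS embryos, against 9.11 and 4.03 in controls. The gamma adaptin model *ap1g1-like.S* was at 72.1 and 85.0 in Gcn5-AS embryos, against 76.7 and 84.7 in controls, a log2 fold change of −0.04. Both models of *ap2a1*, the alpha adaptin of the plasma membrane adaptor AP-2, were higher without being called. Counts of *ap2a1.L* were 157 and 84.1 in Gcn5-AS embryos, against 103 and 55.1 in controls (log2 fold change 0.56), and those of *ap2a1.S* were 87.2 and 85.0, against 57.4 and 79.3 in controls (0.38). *ap4e1.S*, an AP-4 subunit, was at 19.9 and 19.6, against 22.0 and 33.6 in controls (−0.38). In AP-1, 5 of 6 models were lower, in AP-3 4 of 5 and in AP-2 0 of 2, where 49.0% of all models tested were.

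**Figure D2:**
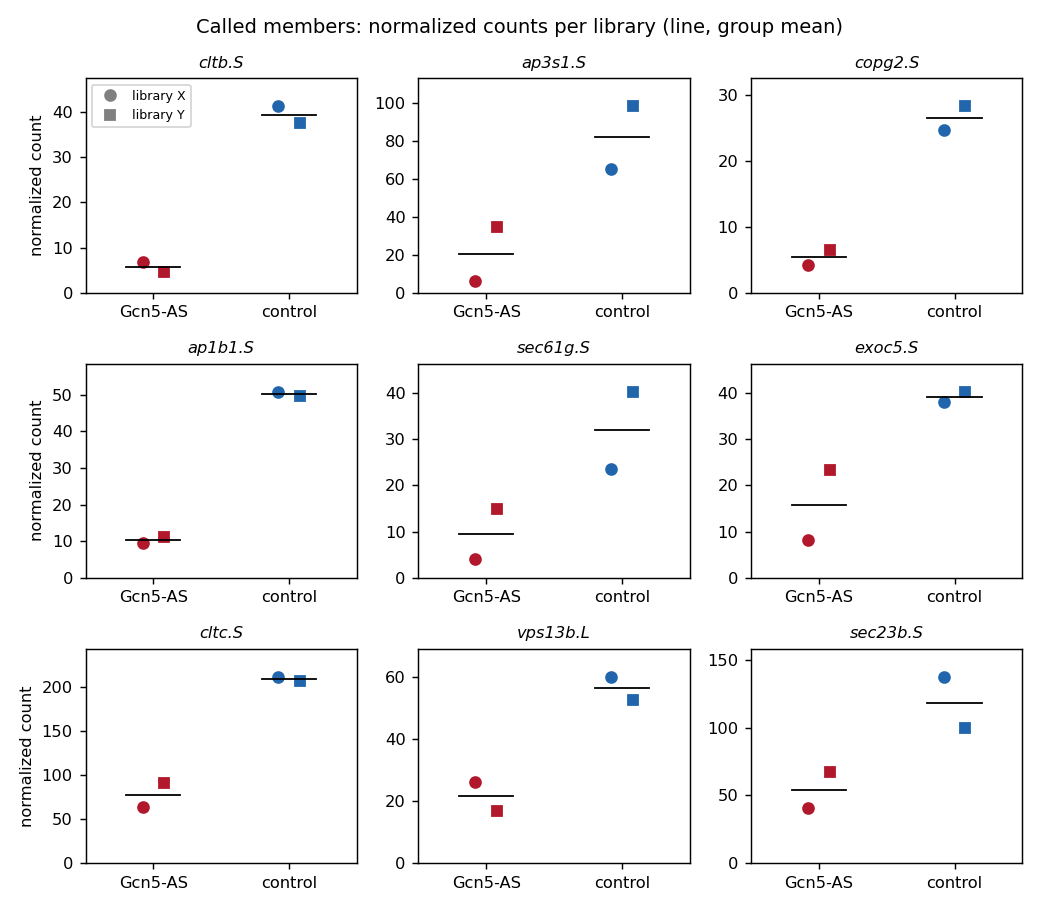
Normalized counts (y axis, from 0, own scale per panel) of the 9 called models, with Gcn5-AS left and control right in each panel. Circles are library X, squares library Y and lines group means. In every panel both Gcn5-AS libraries lie below both controls, and the gap between the Gcn5-AS libraries is widest relative to their mean for *ap3s1.S* (6.18 and 34.6).

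The Golgi and ER coats held a called decrease each, in 1 of 9 COPI and 1 of 10 COPII models. Such counts cannot be set apart from the 4.17% of all models tested that fell. The COPI gene *copg2*, for a gamma coat subunit, had only its S model measured. Counts of *copg2.S* were 4.12 and 6.54 in Gcn5-AS libraries X and Y (6 and 7 reads), against 24.7 and 28.2 in control libraries X and Y, a log2 fold change of −2.30 (SE 0.78, 95% interval −3.89 to −0.70, adjusted p 0.0896). The mean of 10 was reached by *copg2.S* only through the controls. Of the 9 COPI models 7 were lower, where 49.0% of all models tested were, with a median log2 fold change of −0.49. The alpha coat subunit gene *copa* had the most reads. Counts of *copa.L* were 93.4 and 71.0 in Gcn5-AS embryos, against 152 and 143 in controls, with no overlap and a log2 fold change of −0.84 (adjusted p 0.177). Those of *copa.S* were 177 and 82.2, against 160 and 130 in controls, with Gcn5-AS X above and Gcn5-AS Y below both controls.

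COPII models were split. Sec23 is the coat protein that stimulates GTP hydrolysis by Sar1, and both homeologs of *sec23b* were low in Gcn5-AS embryos. Counts of *sec23b.S* were 40.5 and 67.3 in Gcn5-AS libraries X and Y, against 138 and 99.5 in control libraries X and Y, a log2 fold change of −1.20 (SE 0.40, 95% interval −2.01 to −0.38, adjusted p 0.0828). Counts of *sec23b.L*, named here as its homeolog, were 34.4 and 43.0, against 69.2 and 105 in controls, with no overlap and a log2 fold change of −1.12, just short of the threshold (adjusted p 0.112). The log2 fold changes of the cargo-binding coat gene *sec24b* were 0.37 (*sec24b.L*) and 0.45 (*sec24b.S*), neither called. Both models of *sec13*, an outer coat subunit that also belongs to the nuclear pore, had a log2 fold change that rounded to −0.00. The Sec23-binding protein gene *sec23ip* had the most reads in this coat. Counts of *sec23ip.L* were 163 and 134 in Gcn5-AS embryos, against 176 and 210 in controls (log2 fold change −0.37), and those of *sec23ip.S* were 130 and 43.0, against 71.8 and 37.7 in controls (0.48). The median over the 10 COPII models was −0.00.

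Genes of the Sec61 translocon, the ER channel through which secreted and membrane proteins enter the pathway, were lower in 5 of 5 models. Of all models tested 49.0% were lower, and 5 models are too few to set apart from them. The gamma subunit model *sec61g.S* fell, with counts of 4.12 and 14.9 in Gcn5-AS libraries X and Y (6 and 16 reads), against 23.6 and 40.3 in control libraries X and Y. The log2 fold change was −1.99 (SE 0.68, 95% interval −3.40 to −0.59, adjusted p 0.0934). Without Gcn5-AS X it was −0.92 (adjusted p 0.611) and without Gcn5-AS Y −2.71. The beta subunit model *sec61b.L* was at 30.2 and 64.4, against 107 and 72.6 in controls, with no overlap and a log2 fold change of −1.06 (adjusted p 0.144). The pore subunit model *sec61a1.S* was at 96.2 and 76.6, against 113 and 84.7 in controls, which overlap (log2 fold change −0.20). *sec22b.L*, an ER and Golgi SNARE, was at 19.9 and 23.4, against 26.8 and 28.2 in controls (−0.35).

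The exocyst, a tether that docks secretory vesicles at the plasma membrane, held a called decrease in 1 of 3 measured models. These are too few to set apart from the 4.17% of all models tested that fell. Counts of *exoc5.S* were 8.24 and 23.4 in Gcn5-AS libraries X and Y, against 38.1 and 40.3 in control libraries X and Y, a log2 fold change of −1.58 (SE 0.53, 95% interval −2.68 to −0.49, adjusted p 0.0871). Without Gcn5-AS X it was −0.72 (adjusted p 0.643) and without Gcn5-AS Y −2.20. The other measured exocyst models, *exoc5.L* and *exoc1.S*, had log2 fold changes of −0.90 and −0.58 that did not pass. In them, too, both Gcn5-AS libraries lay below both controls, where 25.0% of all models tested did. The exocyst was thinly read, and 6 of its 9 models had a mean under 10. Summed over the 9 models, counts were 40.5 and 61.6 in Gcn5-AS embryos, against 78.8 and 87.4 in controls. With the reads of its L and S models summed, *exoc5* was not called (adjusted p 0.129, limma-voom).

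The TRAPP, COG and GARP tethers had no model called by limma-voom. At an unadjusted p under 0.05, 1 of 8 TRAPP, 0 of 7 COG and 1 of 4 GARP models were lower, and 0 were higher, counts too small to set apart from the 10.2% and 11.8% of all models. TRAPP subunits activate Rab GTPases at the Golgi. Counts of *trappc10.L* were 284 and 200 in Gcn5-AS embryos, against 325 and 344 in controls (log2 fold change −0.49), and those of *trappc10.S* were 214 and 211, against 174 and 182 in controls (0.26). The median over the 8 TRAPP models was −0.53. The homeologs of *trappc10* lay on opposite sides of the controls, with no overlap in either, and the test of their ratio is given with the homeologs. The COG complex, a tether of vesicles that recycle Golgi enzymes, had a median log2 fold change of −0.03 over 7 models. Its most read model *cog8.L* was at 271 and 267, against 277 and 231 in controls (0.09), and *cog3.L* was at 38.5 and 43.9, against 63.8 and 84.7 in controls (−0.81, adjusted p 0.232). In GARP, which tethers endosome-derived vesicles at the Golgi, *vps51.S* was at 20.6 and 12.1, against 18.8 and 8.07 in controls (0.12), which overlap. The other 3 GARP models were lower, down to −1.76 at *vps54-like.L* (adjusted p 0.215), and the median over the 4 was −0.49.

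Vps13 proteins are large lipid transfer proteins at contacts between membranes. Counts of *vps13b.L*, whose human counterpart is mutated in Cohen syndrome, were 26.1 and 16.8 in Gcn5-AS libraries X and Y, against 60.0 and 52.4 in control libraries X and Y. It fell by 1.39 on the log2 scale (SE 0.45, 95% interval −2.31 to −0.47, adjusted p 0.0754), and it was the only called model from the L subgenome. The other 3 Vps13 models had few reads, and *vps13c.L* and *vps13d.L* had a mean under 10. In each of the 3 both Gcn5-AS libraries lay below both controls. The share of 25.0% over all models tested can be set beside *vps13a.L* only, since none was computed for models with a mean under 10. For *vps13a.L* the nearest values were almost equal (9.34 and 9.41). Counts of *vps13a.L* were 5.50 and 9.34 in Gcn5-AS embryos, against 22.0 and 9.41 in controls. *vps13c.L* had 0 and 4 reads in Gcn5-AS libraries X and Y, against 44 and 7 in control libraries X and Y. For *vps13d.L* there were 2 and 5 reads, against 26 and 7 in controls. Summed over the 4 models, counts were 33.0 and 34.6 in Gcn5-AS embryos, against 120 and 80.7 in controls. The ratio of means of 0.337 was the lowest among the complexes. The highest was 2.68, for 3 thinly read Sec14-like lipid binding models (21.3 and 16.8 in Gcn5-AS embryos, against 4.82 and 9.41 in controls).

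Retromer, ESCRT, HOPS and CORVET had no model called by limma-voom. At an unadjusted p under 0.05, 2 of 5 ESCRT models were lower and 1 higher, and 0 of the 5 others, where 10.2% and 11.8% of all models were. In ESCRT, which buds vesicles into the lumen of endosomes, the ESCRT-I gene *vps37b* and the genes *vps36* (ESCRT-II) and *vps4b* (the ATPase that disassembles ESCRT) lay on opposite sides. Counts of *vps37b.L* were 179 and 121 in Gcn5-AS embryos, against 84.7 and 87.4 in controls, a log2 fold change of 0.78 (adjusted p 0.215). The fits for *vps36.L* and *vps4b.S* gave −1.03 and −1.30, with no overlap and adjusted p of 0.183 and 0.151. The retromer core gene *vps35* had counts at *vps35.S* of 46.7 and 55.1, against 76.7 and 72.6 in controls (−0.57). In the HOPS and CORVET tethers of late and early endosomes, *vps16.S* was at 182 and 105, against 170 and 157 in controls (−0.24), and *vps11.1* was at 51.5 and 59.8, against 90.1 and 57.8 in controls (−0.43). *vps45.S*, for a regulator of endosomal SNAREs, was at 41.2 and 44.8, against 55.8 and 76.7 in controls (−0.57). The chromatin gene *vps72* had log2 fold changes of −0.22 at *vps72.L* (111 and 74.7, against 108 and 106 in controls) and 0.06 at *vps72.S* (50.8 and 73.8, against 57.4 and 59.2 in controls).

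**Figure D3:**
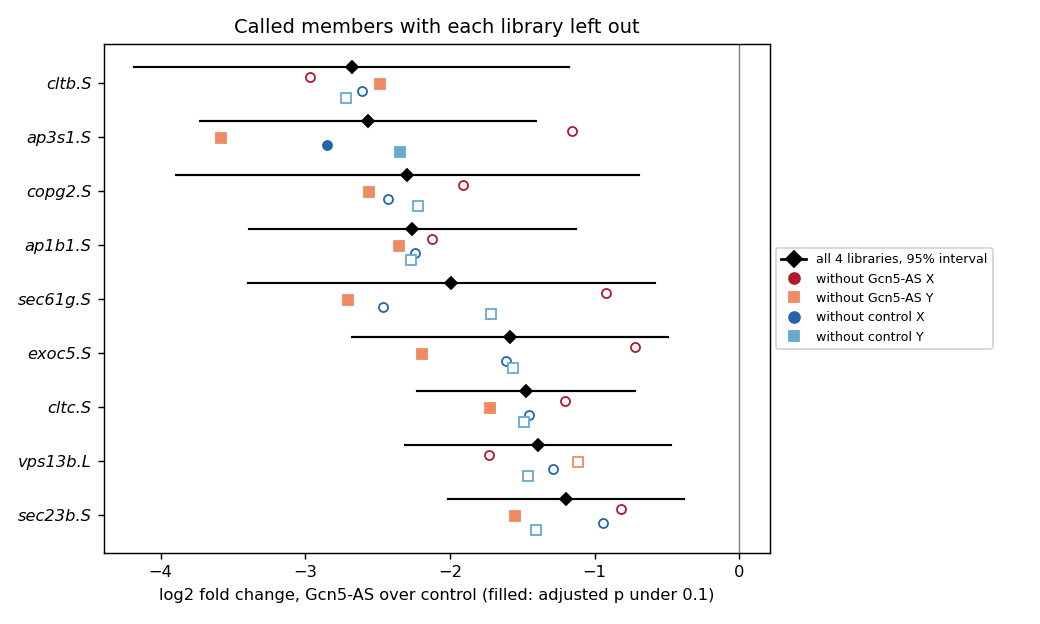
Log2 fold change (x axis, Gcn5-AS over control) of the 9 called models with all 4 libraries (black diamond with its 95% interval) and with each library left out in turn (circles and squares, filled where the adjusted p was under 0.1). All points lie left of 0, as they were bound to with both Gcn5-AS libraries of each model below both controls. Without Gcn5-AS X none of the 9 was called, and *ap3s1.S* moved the most, to −1.16.

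Sorting nexins, which bind endosomal lipids and carry cargo out of endosomes, were the largest group with 23 measured of 38 models. None was called in either direction. Of the 23, 13 were higher and 10 lower, with a median log2 fold change of 0.21. Both Gcn5-AS libraries lay above both controls in 10 and below both in 2, where 26.3% and 25.0% of all models did. At an unadjusted p under 0.05, 4 were higher and 0 lower, where 11.8% and 10.2% of all models were. The model with the most reads was *snx27.L*, for a PDZ protein that couples receptors to retromer. Its counts were 543 and 418 in Gcn5-AS libraries X and Y, against 268 and 285 in control libraries X and Y, a log2 fold change of 0.78 (95% interval 0.07 to 1.50, adjusted p 0.187). The homeolog *snx27.S* was at 178 and 214, against 92.7 and 163 in controls (0.69), also with no overlap. Counts of *snx18.L*, for an endocytic protein with SH3 and BAR domains, were 672 and 267 in Gcn5-AS libraries X and Y, against 211 and 188 in control libraries X and Y. Its log2 fold change was 1.08 (95% interval 0.27 to 1.89, adjusted p 0.112), and most of the distance came from Gcn5-AS X. The related *snx33.S* and the receptor-recycling gene *snx17.L* had log2 fold changes of 0.99 and 1.17 (adjusted p 0.167 and 0.176). Among the more abundant models *snx12.L* was the lowest, at 58.4 and 51.4, against 50.9 and 75.3 in controls (−0.13). Summed over the 38 models, counts were 1958 and 1534 in Gcn5-AS embryos, against 1077 and 1229 in controls. Without Gcn5-AS Y, more models were called higher over the whole table too (last section). Among them were *snx17.L*, *snx18.L* and *snx27.L*, together with *ap2a1.L*, *sec23ip.S* and *vps37b.L*. No test set the sorting nexins against the coats.

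**Figure D4:**
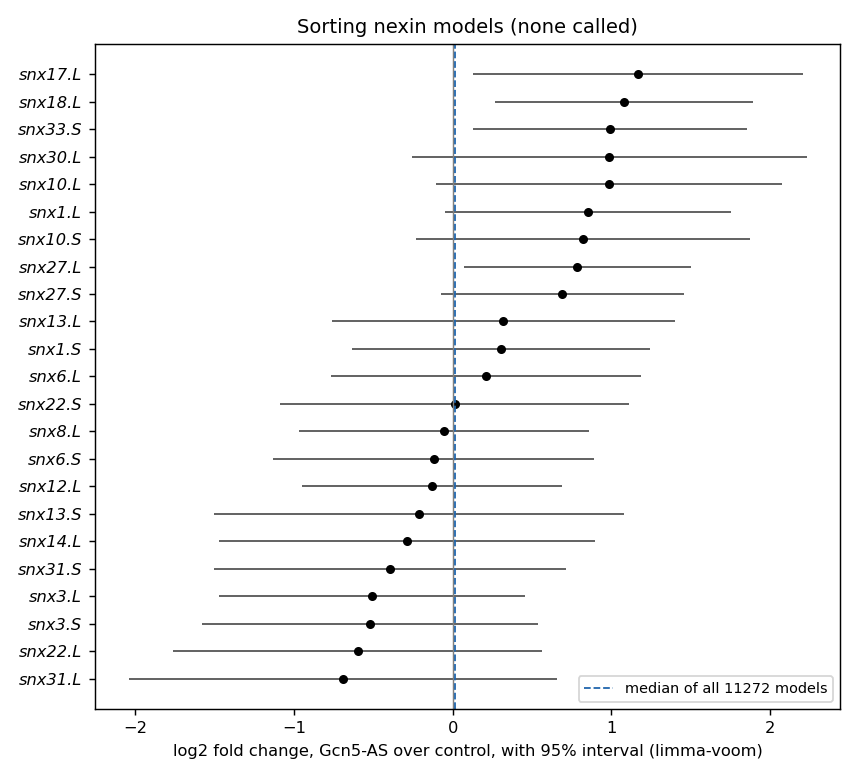
Log2 fold change with its 95% interval (x axis, Gcn5-AS over control, limma-voom) of the 23 measured sorting nexin models, ordered from the lowest to the highest. The values run from −0.69 for *snx31.L* to 1.17 for *snx17.L*. Intervals of 4 models lie wholly above 0 and of none wholly below 0, and no model passed the false discovery rate.

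The decreases stood mostly in S homeologs. Of the 9 called models 8 were S rows, that is, 8 of 48 measured S models and 1 of 52 measured L models. Among the 8 are *cltb.S*, *copg2.S* and *sec61g.S*, which reached the mean of 10 only through the controls. Over all models tested, 4.10% of S and 4.46% of L models fell. The vesicle models had medians of −0.25 (S) and −0.34 (L), so the S median was not below the L median. This split was seen after the values were known and was not tested as such. The ratio of L to S was tested for the 33 gene names with both homeologs measured (limma on log2 ratios with a pseudocount of 1, adjusted over 2286 pairs). A changed ratio was called for 0 of the 33 and for 2 of all pairs (0.0875%). The smallest adjusted p among the 33 was 0.313, and 5 had an unadjusted p under 0.05, against 10.1% of all pairs. With a pseudocount of 5 the count was also 0.

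These 5 pairs were *cltb*, *sec61g*, *sec23a*, *ap1b1* and *cltc*, and in each the L share was larger in both Gcn5-AS libraries than in both controls. They were picked for their p, which favours groups that do not overlap. All but *sec23a* also had an S model called lower beside an L model that was not, which favours this direction. The share of all pairs with this pattern was not computed. The L to S ratio of *cltb* was 1.17 and 3.31 in Gcn5-AS libraries X and Y, against 0.429 and 0.269 in control libraries X and Y, a log2 change of 2.53 (95% interval 1.16 to 3.90). That of *cltc* was 1.37 and 1.14, against 0.442 and 0.780 in controls, a log2 change of 1.09 (0.07 to 2.11). For *trappc10* the ratio was 1.32 and 0.947, against 1.87 and 1.89 in controls, a log2 change of −0.75 with an interval that spans 0 (−1.67 to 0.17). Intervals spanning 0 also came out for *sec23ip* (−0.89), *copa* (−0.59) and *vps72* (−0.30), the other pairs with abundant homeologs that differed most.

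The homeologs of a pair had log2 fold changes of the same sign in 23 of the 33 (69.7%), with 16 pairs lower and 7 higher, against 73.8% of all pairs. Across the 33 pairs the log2 fold changes of L and S correlated at Pearson r 0.55 and Spearman rho 0.57, a description only, since both come from the same libraries. Reads of near-identical homeologs may have been assigned to either copy, so the reads of L and S were also summed. Of 77 vesicle genes measured in this way, 6 fell and 0 rose (limma-voom), with a median log2 fold change of −0.25, and 14 were lower and 6 higher at an unadjusted p under 0.05. Over all 9232 genes 3.67% fell and 3.51% rose, with a median of 0.00, and 10.3% were lower and 11.3% higher at that unadjusted p. The 6 were *ap3s1* (4.01-fold lower), *cltb* (2.93-fold), *sec23b* (2.28-fold), *ap1b1* (2.74-fold), *copg2* (4.88-fold) and *vps13b* (2.62-fold), with adjusted p from 0.0511 to 0.0902. Counts of summed *copg2* and *vps13b* were those of *copg2.S* and *vps13b.L* alone, so their calls repeat the calls of the single models. Summed *copg2* also reached the mean of 10 only through the controls. Summed *cltc* counts were 150 and 194 in Gcn5-AS embryos, against 306 and 368 in controls, with a log2 fold change of −0.98 and an adjusted p of 0.113. Summed *sec61g* and *exoc5* were not called either. With any library other than Gcn5-AS Y left out, 0 summed genes were called lower.

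**Figure D5:**
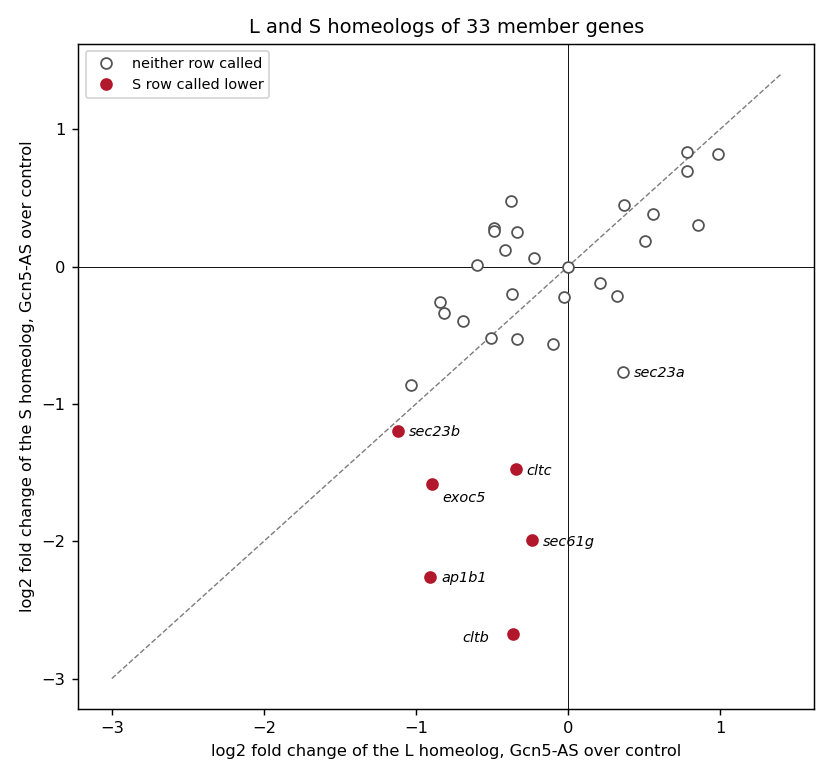
Log2 fold change (Gcn5-AS over control) of the L homeolog (x axis) against that of the S homeolog (y axis) for the 33 vesicle genes with both measured. Red points have a called S model, the dashed diagonal marks equal change, and names are given for red points and for pairs whose L to S ratio had an unadjusted p under 0.05. All 6 red points lie below the diagonal. They were picked for a called S model beside an L model that was not called, which favours that side. *sec23b* lies close to the diagonal (−1.12 for L and −1.20 for S). Of the 33 points, 23 have both values on the same side of 0.

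A filter on the mean of both groups lets in models through the group in which they are high. Of the 104 tested, 10 had a Gcn5-AS mean under 10 (9.62%, against 5.85% of all models tested) and 2 had a control mean under 10 (1.92%, against 4.78%). The called models *cltb.S*, *copg2.S* and *sec61g.S* are 3 of these 10. Over all models tested, 659 had a Gcn5-AS mean under 10, and 102 of them were called lower. Of the 80 models below the filter, 74 had a read and 37 of these were lower in Gcn5-AS embryos. The other 6 had no read in any library, namely *ap4e1.L*, *copz2.L*, *vps25.S*, *vps37a.S*, *vps41.S* and *trappc6b-like.L*. Summed over all 184 models, counts were 13766 and 14067 in Gcn5-AS embryos, against 10871 and 15639 in controls. These sums rest on *ap1m2.1*, and without it they were 6195 and 5452, against 6212 and 6138 in controls, a ratio of means of 0.943.

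Genes that work beside the coats were taken from 6 further lists, which were chosen with earlier results of these data known. Their shares are a description only and no test of the lists. Among 22 models of clathrin accessory proteins, 3 fell (13.6%) and 1 rose (4.55%), against 4.17% and 4.46% of all models tested. *heatr5b.L* and *heatr5a.L* encode partners of the AP-1 adaptor, and *heatr5b.L* passed the filter only through the controls. Counts of *heatr5b.L* were 1.37 and 4.67 in Gcn5-AS libraries X and Y, against 174 and 171 in control libraries X and Y, a log2 fold change of −5.94 (adjusted p 0.00316). Those of *heatr5a.L* were 33.7 and 56.0, against 163 and 208 in controls (−2.09, adjusted p 0.00538). The kinase gene *gak.S*, whose product helps to strip clathrin from vesicles, fell to 27.5 and 49.5 in Gcn5-AS embryos, against 99.2 and 114 in controls (−1.54, adjusted p 0.0337). *fcho1.L*, for a protein of early clathrin pits, rose to 74.9 and 65.4, against 24.1 and 37.7 in controls (1.28, adjusted p 0.0810). The median of this list was −0.03.

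Over all 6 lists 3 of 124 models rose (2.42%) and 6 fell (4.84%), near the 4.46% and 4.17% of all models tested. Of 24 SNARE and fusion models 1 rose and 1 fell. The Golgi SNARE *gosr2.L* rose to 186 and 153 in Gcn5-AS embryos, against 56.3 and 78.0 in controls (1.38, adjusted p 0.0369). The plasma membrane SNARE *snap23.L*, which passed the filter only through the controls, fell to 2.06 and 0.934, against 46.1 and 37.7 in controls (−4.55, adjusted p 0.0212). In the Arf and Sar GTPase list 1 of 12 rose, namely *preb.L*, which activates Sar1 for COPII assembly, at 244 and 185 in Gcn5-AS embryos, against 105 and 92.8 in controls (1.10, adjusted p 0.0810). Of 22 models of ER cargo receptors and p24 proteins 1 fell, the p24 gene *tmed9.S*, at 12.4 and 19.6, against 59.5 and 59.2 in controls (−1.95, adjusted p 0.0235). Among 28 other ESCRT and endosome models the ESCRT-III-related *ist1.S* fell, at 17.2 and 18.7, against 39.1 and 59.2 in controls (−1.36, adjusted p 0.0938). Of 16 Golgi tether and golgin models none was called by limma-voom, with 2 lower and 0 higher at an unadjusted p under 0.05.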

How the data were processed

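Per the labels, total RNA of embryo pools was depleted of ribosomal RNA and sequenced as single-end reads of 75 nucleotides. The authors mapped them with STAR to *X. laevis* genome version JGI 9.1 with 1 mismatch. The counter, annotation, strand setting and tool versions were not given in the sources used here, and reads of overlapping or antisense genes may be mixed. What the authors deposited is DESeq output, with group means of size-factor-scaled gene counts (a signal column per group). Its log2 fold change and p-value columns hold the authors' own comparison and were not used.

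Each mean above 0 (21410 Gcn5-AS, 21721 control) had exactly 1 solution in whole reads of 2 libraries (relative tolerance 3e-14), which gave reads and size factors per library (1.46 and 1.07 for Gcn5-AS X and Y, 1.87 and 0.744 for control X and Y). Models with a mean of at least 10 were fitted with limma 3.58.1 (voom, lmFit, eBayes) in R 4.3.3, two-sided, with Benjamini-Hochberg adjustment over all models. The recovery of reads and both limma fits were also run on simulated counts with known answers. Tables used Python 3.11.15, numpy 2.4.6 and pandas 2.3.3. An exact permutation test of 2 against 2 cannot go below 0.333 and was not used.

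Named are called models, the highest, lowest (mean of at least 50) and most read model of each complex, the 5 most unequal homeolog pairs, called models of the related lists and *kat2a*. Other names were chosen after their values were seen. Members and lists were chosen with earlier results of these data known. Alternatives were other scales, scalings, filters and thresholds, and leaving out each library.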

Additional observations from a re-analysis of the deposited data

How the results depend on the processing

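With a library left out, a group is a lone sample that is assumed to vary like the other group. Models called lower, 470 with all libraries, then ranged from 76 to 836, and models called higher, 503 with all libraries, from 6 to 1421. The lowest counts came without control X and the highest without Gcn5-AS Y. Vesicle models called lower ranged from 0 (without Gcn5-AS X) to 11 (without Gcn5-AS Y) and those called higher from 0 to 6. With homeologs summed the ranges were 0 to 9 lower and 0 to 3 higher. Scaling by library totals left 3 vesicle models lower, 1 summed gene lower, and 171 lower and 19 higher models over the whole table, with a median over vesicle models of −0.43 and over all models of −0.15. Totals without the 10 most abundant models gave 194 higher models, with a median over vesicle models of −0.51 and over all models of −0.21. In that setting 10 vesicle models were called lower, among them all 9, but the median of all models had moved down too. A mean of at least 50 left 3 vesicle models, and 197 lower and 320 higher models in all. A false discovery rate of 0.05 left 4 vesicle models, 0 summed genes, and 242 lower and 223 higher models. Limma on log2 counts with a pseudocount of 1 or 5 called 7 or 8 of the 9. Without a filter 7 were called, 5 of them among the 9, the others being *trappc11.L* and *vps13c.L*. The share of all models called lower is not given for these settings or for totals without the 10 most abundant models. Their vesicle counts show only which calls were kept. Relative to all models, the vesicle median was lower by 0.17 to 0.34 in every setting (log2). Of 467 log2 fold changes of single genes under the alternatives, 71 lost and 6 gained their call, and 22 changed sign, all of them of models that were not called with all libraries. With a library left out, the log2 fold changes of these models ranged as follows: *ap1m2.1* (−0.23 without control X to 0.80 without control Y), *ap1g1-like.S* (−0.15 without Gcn5-AS Y to 0.087 without Gcn5-AS X), *cog8.L* (−0.038 without control Y to 0.22 without control X), *copa.S* (−0.82 without Gcn5-AS X to 0.28 without Gcn5-AS Y), *sec23ip.S* (−0.37 without Gcn5-AS X to 1.22 without Gcn5-AS Y), *sec61a1.S* (−0.39 without control Y to 0.019 without control X), *vps51.S* (−0.29 without Gcn5-AS X to 0.93 without control X), *vps16.S* (−0.65 without Gcn5-AS X to 0.15 without Gcn5-AS Y), *cltc.L* (−0.77 without control X to 0.027 without control Y), *vps72.S* (−0.19 without Gcn5-AS Y to 0.34 without Gcn5-AS X), *vps72.L* (−0.52 without Gcn5-AS X to 0.054 without Gcn5-AS Y), *snx12.L* (−0.46 without control X to 0.11 without control Y), *kat2a.L* (−0.85 without control X to 0.19 without control Y) and *kat2a.S* (−1.27 without Gcn5-AS Y to 0.076 without Gcn5-AS X). Scaling by library totals, with and without the 10 most abundant models, turned *cog8.L* (−0.055 and −0.12), *vps51.S* (−0.022 and −0.088) and *vps72.S* (−0.088 and −0.16). No paired analysis was possible because the recovered libraries cannot be matched to replicate numbers. Of the 9 called models, *cltb.S*, *ap1b1.S*, *copg2.S* and *sec61g.S* had at most 16 reads in either Gcn5-AS library, which limits the precision of their fold changes. The causes of these differences were not tested.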
